A study of Danio rerio with 4 samples.

Results

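The comparison described here sets 1 ovary library from zebrafish exposed to dibutyl phthalate (DBP) against 1 control ovary library. These are 2 of the 4 libraries of the study. The others came from ovaries exposed to diisobutyl phthalate (DiBP), an isomer of DBP with branched butyl chains, and to DBP with DiBP (the combined library). All 4 came from wild-type females of the AB strain, 5 months old, in a study of 30 days of exposure. Doses, the vehicle of the control and the number of ovaries behind a library are not stated in the labels. Genes were taken where the row carries an Ensembl identifier and the 4 libraries averaged 1 FPKM or more (fragments per kilobase of transcript and per fixed number of mapped fragments), which held for 12603 of 35066 genes. Differences are DBP minus control in log2(FPKM + 1), a scale on which low genes change by less than their true ratio. Each group has 1 library, so no difference has a replicate check or a test. Every value compares these libraries and not the conditions.

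DBP is a plasticiser that enzymes cut to a monoester, and phthalates are known for effects on steroid hormones in reproductive tissue. A zebrafish ovary holds oocytes of all stages, each surrounded by granulosa cells, theca cells and a surface epithelium. Growing oocytes are very large and store maternal mRNA and mitochondria for the embryo, so oocyte transcripts dominate RNA from the whole organ. In such bulk RNA, fewer cells of a type and less RNA per cell cannot be told apart.

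Most genes differed little. The median difference over the 12603 genes was 0.01 (SD 0.57), and 80.1% lay within 1.5-fold. At least 2-fold higher in the DBP library were 464 genes (3.68%), and at least 2-fold lower were 312 (2.48%). At least 1.5-fold higher were 10.6% of genes and at least 1.5-fold lower 9.29%, and these shares are the background for the gene lists below. Members of a list are counted as higher or lower from 1.5-fold on unless another fold is given, while loci of cell type markers are counted at any difference. Values summed to 572398 FPKM in the DBP library and to 534379 in the control. From the steps between the lowest values, the DBP library was 1.05 times as deep. The absolute depth is not known. Genes at 100 FPKM or more had a median difference of 0.13, against -0.01 for those from 1 to 5 FPKM. At the filter's edge, the mean of RAB26 was just inside (1.0001 FPKM, with 0.522 in the DBP library against 0.809) and that of cfap210 just outside (0.998 FPKM, with 1.55 against 0.658).

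**Figure D1:**
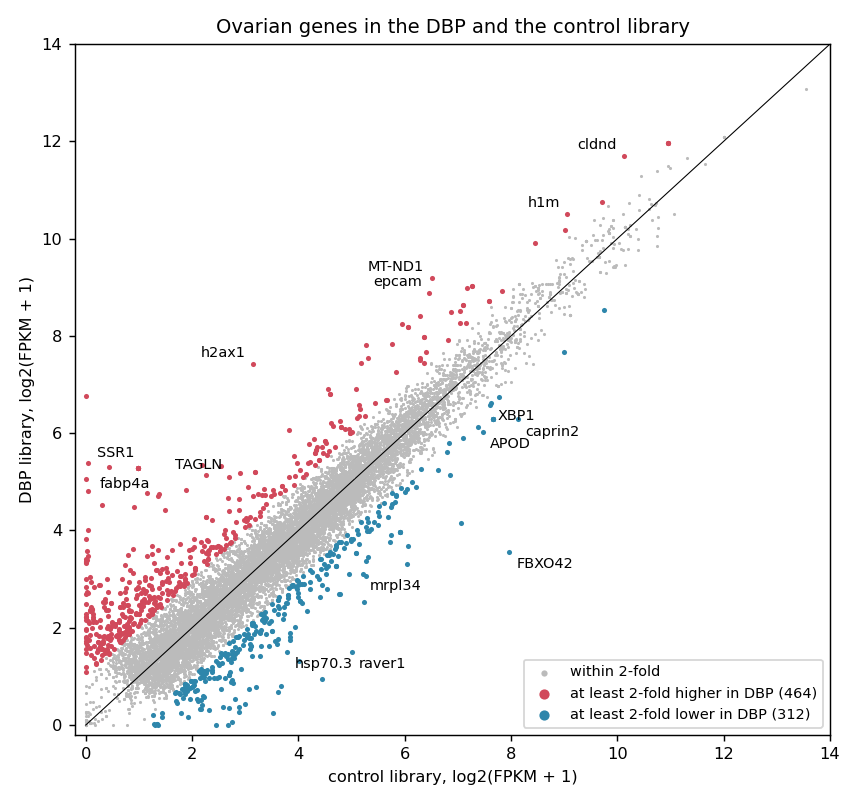
Each point is 1 of the 12603 genes, at its log2(FPKM + 1) in the control library (x axis) and the DBP library (y axis), with the line of equality. The 464 genes at least 2-fold higher in the DBP library are red and the 312 at least 2-fold lower are blue; most points lie along the line.

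The largest shift of any respiratory group was in the genes carried by mitochondrial DNA, and within it in complex I, which takes electrons from NADH. All 7 complex I genes of the mitochondrial genome were at least 2-fold higher in the DBP library, with a median difference of 1.76. MT-ND1 was at 89.8 FPKM in the control, 584 in the DBP, 310 in the DiBP and 180 in the combined library. MT-ND3 was at 153, 522, 224 and 99.6 FPKM in the same order. MT-ND2 was at 81.6, 252, 107 and 116 FPKM. MT-ND2 and MT-ND3 each share their values with a gene that has no symbol. In the DBP, DiBP and combined libraries, MT-ND5 differed from the control by 2.27, 1.63 and 1.14. MT-ND6 differed by 2.13, 1.33 and 1.15 in that order. At MT-ND5 and MT-ND6, each exposed library was therefore at least 2-fold above the control. The DBP library was the highest of the 4 at each of these genes. MT-ND4 and mt-nd4l share 1 set of values, so the list holds 6 separate loci. Of the 6 mitochondrial genes of cytochrome b, cytochrome oxidase and ATP synthase, 1 was at least 2-fold higher, with a median of 0.42. That gene was MT-CYB, the cytochrome b of complex III, at 839 FPKM in the control, 1717 in the DBP, 771 in the DiBP and 641 in the combined library. MT-CO1, MT-CO2 and MT-CO3, subunits of the oxidase, had differences of 0.84, 0.55 and 0.29, the last shared with mt-atp8 and MT-ATP6. This second list therefore holds 4 separate loci, with a median of 0.69 and 2 at least 1.5-fold higher.

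Nuclear genes of the same complexes showed no shift of that size. Of 37 nuclear complex I subunits, 30 had a positive difference, 2 were at least 1.5-fold higher and 1 lower, with a median of 0.17. Of 46 subunits of complexes II to V, 28 had a positive difference, 4 were higher and 1 lower, with a median of 0.16. UQCRH, the hinge protein of complex III, was at 76.7 FPKM in the control, 186 in the DBP, 196 in the DiBP and 84.6 in the combined library. Several core subunits, named after their values were seen, lay below the control: ATP5F1A of ATP synthase was at 695 FPKM against 974, NDUFS1 of complex I at 62.4 against 90.1 and SDHA of complex II at a difference of -0.50. None of these reached 1.5-fold. Genes that copy and transcribe mitochondrial DNA had a median of 0.04, with 0 of 21 higher and 1 lower. That was POLG, the mitochondrial DNA polymerase, at 3.41 FPKM against 5.90, while TFAM, which packages mitochondrial DNA, was at 23.2 against 19.3.

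The 73 mitochondrial ribosomal proteins had a median of 0.23, with 4 at least 1.5-fold higher and 2 lower. The lower ones were MRPS7, of the small subunit, at 50.1 FPKM against 80.0, and mrpl34, of the large subunit. The values of mrpl34 were 36.1 FPKM in the control, 7.65 in the DBP, 40.7 in the DiBP and 32.9 in the combined library, so the DBP library alone was low. Enzymes of the citric acid cycle leaned the other way, with a median of -0.27, 1 of 24 higher and 3 lower. Below the control were DLAT, the acetyltransferase of pyruvate dehydrogenase (12.9 FPKM against 24.6), and PDHB of the same complex (39.2 against 60.1). CS, citrate synthase, was the exception above it, at 28.8 FPKM against 17.6. In glycolysis, 3 of 20 genes were higher and 0 lower, with a median of -0.02. Among them were LDHA, a lactate dehydrogenase (18.8 FPKM against 8.73), and SLC16A3, a lactate exporter (39.5 against 18.7).

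**Figure D2:**
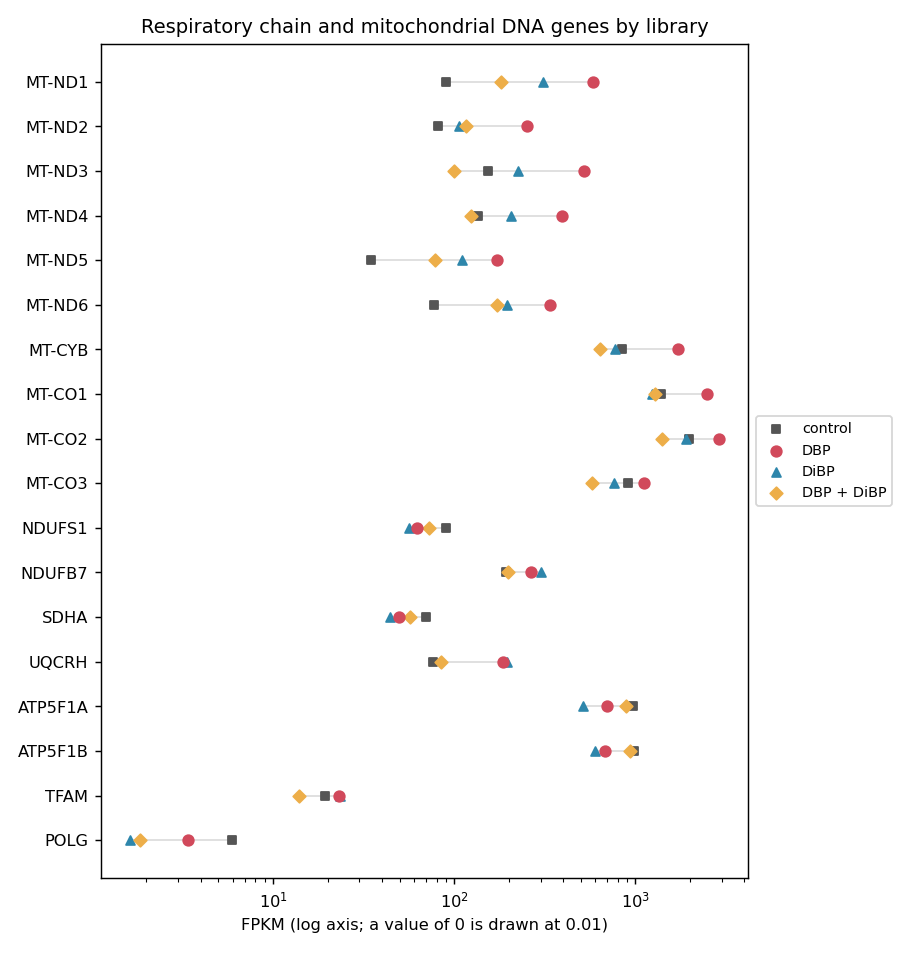
FPKM on a log axis for genes encoded in mitochondrial DNA (MT- symbols) and nuclear genes of respiration and mitochondrial DNA upkeep, with 1 symbol per library. The DBP library (red circles) lies to the right of the other 3 at each MT- gene shown, and between the DiBP and the control library at SDHA, ATP5F1A and NDUFS1.

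Oocyte genes were near the control as a list, with a few large differences. Of 40 oocyte and maternal genes tested, 7 were at least 1.5-fold higher in the DBP library and 1 lower, with a median of 0.19. The largest was h2ax1, a histone H2A.X gene, at 7.81 FPKM in the control, 169 in the DBP, 19.6 in the DiBP and 133 in the combined library. The other histone gene hist2h2l was at 2.69, 27.3, 4.86 and 26.9 FPKM in the same order. At both, the DBP and combined libraries were high and the control and DiBP libraries low. FKBP6, a co-chaperone of the piRNA pathway that silences transposons, had the same order, at 1.81, 20.3, 4.78 and 17.3 FPKM. Of the 23 piRNA genes it was the only one at least 1.5-fold higher, and 0 were lower.

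The claudin gene cldnd, of a family of tight junction proteins and among the most abundant genes here, was at 1111 FPKM in the control, 3301 in the DBP, 3699 in the DiBP and 1824 in the combined library. Its relative cldng had a difference of 0.81. BTG4, which drives the clearance of maternal mRNA in mammals, was at 111 FPKM in the control, 240 in the DBP, 159 in the DiBP and 83.6 in the combined library. NANOS3, an RNA regulator of germ cells, was at 10.6 FPKM in the control and 25.9 in the DBP library and listed at 0 in the DiBP and combined libraries. The egg coat genes had a median of 0.01, with 1 of 20 higher and 1 lower. The egg coat gene zp3d.2 was at 77.7 FPKM against 47.3 and zp2l2 at 41.3 against 67.1.

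Cell cycle genes had small differences as lists. Among 50 cyclins and maturation kinases, 7 were at least 1.5-fold higher and 2 lower, with a median of 0.10. The B-type cyclin CCNB2 was at 540 FPKM against 336 and CCNA1, a cyclin of germ cells, at 236 against 129. CCNA2 was at 47.1 against 18.8, a value it shares with BBS7. Of 55 DNA replication genes 6 were higher and 3 lower, with a median of 0.14. RRM2, a subunit of the enzyme that makes deoxynucleotides, was at 32.8 FPKM in the control, 120 in the DBP, 95.1 in the DiBP and 25.0 in the combined library, so both single exposures were high. GMNN, the licensing inhibitor geminin, was at 384 against 197, and MCM7, a subunit of the replication helicase, at 199 against 302. In meiosis 4 of 25 genes were higher and 0 lower, with syce2, of the synaptonemal complex, at 4.94 FPKM against 1.89. In DNA repair 3 of 63 were higher and 3 lower, with the endonuclease gene APEX1 at 15.9 against 37.6.

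In RNA processing, of 46 spliceosome genes 10 were at least 1.5-fold higher and 3 lower, with a median of 0.26. Proteins of the Sm and Lsm rings, which hold small nuclear RNAs, were among the higher ones. SNRPF was at 174 FPKM against 81.1, a locus of SNRPD3 at 305 against 141 and LSM8 at 103 against 62.9. SNRPB, of the same rings, was lower but short of 1.5-fold, at 1460 against 2137. SF3A1, of the U2 particle, was at 68.8 against 165 and PRPF8, the scaffold of the splicing centre, at 5.71 against 9.75. The ribosomal proteins also leaned above the control, by a median of 0.20 for 45 of the large and 0.33 for 32 of the small subunit. Positive differences were found at 33 of the 45 and 27 of the 32. All genes at 100 FPKM or more had a median of 0.13. In the small subunit 4 reached 1.5-fold higher and 0 lower. The large subunit had 4 higher and 1 lower, RPLP0 of the stalk, at 1069 FPKM against 1718.

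Genes that load tRNAs lay below the control. The aminoacyl-tRNA synthetases had a median of -0.29, 4 of 19 had a positive difference, 2 were at least 1.5-fold lower and 0 higher. IARS1 was at 29.1 FPKM against 51.1 and EPRS1 at 23.8 against 38.0. Translation factors had a median of 0.03 over 74 genes, with eef1a1l1, an elongation factor, at 706 FPKM against 1129 and EIF4E2, a cap-binding protein, at 28.1 against 9.25. The proteasome list had a median of -0.02 over 44 genes, with 2 higher and 3 lower, PSMB10 among the latter at 15.3 FPKM against 40.1.

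In the secretory pathway, of 29 genes of the translocon and of signal sequence processing, 1 was at least 1.5-fold higher and 5 lower, with a median of -0.15. The 5 were STT3B, STT3A, RPN1 and DDOST of oligosaccharyltransferase, the enzyme that adds sugar chains to new proteins, and SRPRA of the signal receptor. STT3B was at 55.6 FPKM in the control, 22.9 in the DBP, 20.7 in the DiBP and 39.1 in the combined library. STT3A was at 99.2, 63.9, 39.5 and 77.3 FPKM in the same order. The gene above was SSR1, of the translocon, at 40.9 FPKM in the DBP library and at 0.0297, 0.0992 and 0.0699 FPKM in the control, DiBP and combined libraries. SSR1 shares its values with a merged locus. XBP1, a transcription factor of the unfolded protein response, was at 195 FPKM in the control, 96.9 in the DBP, 142 in the DiBP and 150 in the combined library. Its list had a median of 0.04, with 3 of 32 higher and 2 lower. SEC24A, a coat protein of vesicles that leave the endoplasmic reticulum, was at 28.9 FPKM against 73.5.

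**Figure D3:**
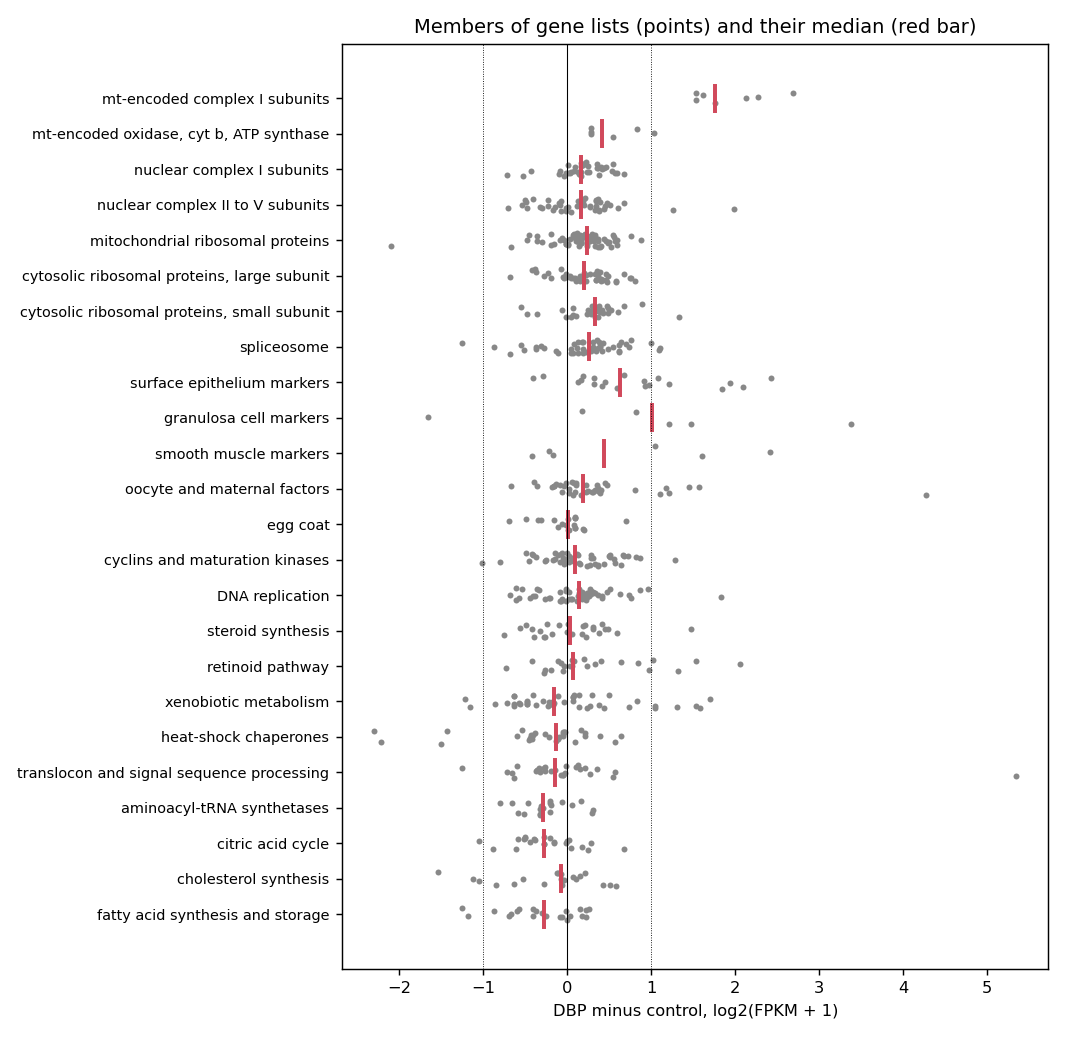
Differences in log2(FPKM + 1), DBP minus control, for the tested members of 24 gene lists (grey points), with the list's median as a red bar and dotted lines at 2-fold. Complex I genes of the mitochondrial genome all lie beyond the right dotted line, with a median of 1.76, and most other medians lie between -0.3 and 0.7.

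Genes listed as markers of the ovary's somatic cells were mostly higher in the DBP library, and most of them were at low levels. Low genes as a whole leaned the same way: of 13485 loci under 1 FPKM, 51.9% were higher in the DBP library and 35.4% lower, and 77.4% were above 0 in it against 68.5% in the control. A low gene can pass the filter through a library in which it is high, so counts over tested markers are given as description only. The counts over all matched loci, tested or not, can be read beside 51.1% higher and 42.1% lower over all 25259 loci above 0 in any library. The part of these low values in the marker differences was not tested.

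Of 34 surface epithelium loci, 26 were higher in the DBP library and 6 lower. The claudins cldna and cldni were at 0 both in it and in the control, while cldn1 was at 0 in the control only. The summed level of the loci was 288 FPKM in the control, 738 in the DBP, 1379 in the DiBP and 392 in the combined library. Without epcam, an epithelial adhesion gene that made up much of it, the sums were 201, 266, 232 and 232 FPKM. The gene epcam itself was not low, at 86.8, 472, 1147 and 160 FPKM in the same order. Which cells carried these transcripts was not tested. Of the 20 tested markers 11 reached 1.5-fold higher and 0 lower. The gene krt94, a keratin of epithelial filaments, was at 0.972 FPKM in the control, 6.08 in the DBP, 0.954 in the DiBP and 0.688 in the combined library. ANXA2, a membrane-binding annexin, was at 0.269, 4.41, 1.49 and 0.729 FPKM in the same order. At both genes the DBP library was the highest. Keratins as a family were looked at after these values were seen. Of 20 matched, 15 were higher in the DBP library, 2 lower and 3 listed at 0 in both, at low levels for the most part and with some rows sharing values. Of the 6 that passed the filter, several did so through the DBP library, so their count is not read further. The keratin krt15 was at 7.29 FPKM in the DBP library and between 0.718 and 1.16 in the other 3.

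Of 23 granulosa loci, 19 were higher in the DBP library and 4 lower. Their summed level was 24.1 FPKM in the control, 66.0 in the DBP, 51.6 in the DiBP and 31.0 in the combined library, and 9.36, 39.2, 25.2 and 10.4 without SERPINE2. A row named mir202, a microRNA gene of the gonads, made the largest difference, at 1.58 FPKM in the control, 25.8 in the DBP, 13.0 in the DiBP and 3.26 in the combined library. This row alone made up most of the 39.2 FPKM left in the DBP library without SERPINE2, but little of the 9.36 in the control. The rise in that sum therefore rests largely on mir202. The keratin gene krt18a.1 was at 2.98 FPKM against 0.722. A defining marker was at like levels in all libraries: the tested FOXL2 row, of a transcription factor of granulosa cells, was at 1.16, 1.43, 1.19 and 1.24 FPKM. The list also counts foxl2l, a related gene of germ cells and so no granulosa marker in the strict sense. It was lower in the DBP library, with 3.66 FPKM in the control, 0.485 in the DBP, 0.542 in the DiBP and 1.35 in the combined library. FSHR, inha, a row of INHBB and another row of FOXL2, defining genes at 0 in the control, were above 0 in the DBP library. All of these rows averaged under 1 FPKM. FSHR and inha were above 0 in the DiBP and combined libraries too, the INHBB row in the DiBP and the FOXL2 row in the combined library.

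The steroid synthesis list, which holds relatives and partners of the enzymes too, had a median of 0.04, with 2 of 26 genes past 1.5-fold higher and 1 lower. The higher ones were CYP19A1, the aromatase that turns androgen to oestrogen, at 3.65 FPKM against 0.677, and SRD5A3, of the steroid reductase family, at 40.9 against 26.6. The lower one was FDX2, a mitochondrial ferredoxin, at 61.4 against 104. CYP17A1, which makes androgens in theca cells, was at 10.1 FPKM in the control, 13.4 in the DBP, 17.0 in the DiBP and 13.7 in the combined library. Of the 12 hormone receptors tested, 1 was at least 1.5-fold higher and 0 lower. It was an ESR2 row, an oestrogen receptor, at 1.51 FPKM in the control, 4.50 in the DBP, 1.16 in the DiBP and 2.66 in the combined library. The DBP library was the highest of the 4 there.

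Smooth muscle genes were higher at 16 of 21 loci and lower at 3, with a row of CNN1 and cald1b at 0 in the control and in the DBP library. Their summed level was 103 FPKM in the control, 116 in the DBP, 104 in the DiBP and 80.1 in the combined library. Most of it was tpm1, a tropomyosin gene also used outside muscle, which was lower in the DBP library, at 62.5 FPKM against 83.8. Without it the sums were 19.3, 53.3, 25.3 and 20.3 FPKM. A TAGLN row, of an actin-binding protein of smooth muscle, was at 5.47, 33.5, 10.1 and 6.79 FPKM in the same order. This row made up most of the 53.3 FPKM left in the DBP library without tpm1, and a smaller part of the other sums. MYL9, a myosin light chain, was at 0.313, 3.01, 2.46 and 0.519 FPKM. Theca and stroma genes were higher at 20 of 28 loci and lower at 7, and summed to 30.3, 44.0, 36.2 and 29.2 FPKM. Endothelial genes were higher at 17 of 24 loci and lower at 6, and their sums of 9.91, 13.2, 9.31 and 9.08 FPKM were close.

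Leukocyte genes were higher at 26 of 32 loci and lower at 5. They summed to 14.8 FPKM in the control, 69.4 in the DBP, 42.3 in the DiBP and 27.6 in the combined library. Without the most abundant MFAP4 locus, whose rows share 1 set of values, the sums were 13.9, 31.3, 19.2 and 15.6 FPKM. Defining myeloid genes csf1ra and csf1rb were at 0 in the control and above 0 in the DBP library, where cd79a and mhc2dab were at 0. In the DiBP library csf1ra was above 0 and in the combined library csf1rb, while cd79a was at 0 in both. CEBPA, of the same list, was at 0 in every library. The gene cd74a, of antigen presentation, was at 1.04 FPKM in the control, 4.39 in the DBP, 2.74 in the DiBP and 0.485 in the combined library. In the interferon list, 3 of 16 genes were higher and 1 lower. There b2m, the light chain of class I antigen-presenting molecules, was at 0.619, 3.74, 2.79 and 1.23 FPKM, and trim25, a ubiquitin ligase of antiviral signalling, at 6.6, 3.65, 1.46 and 2.97 FPKM. In the complement list 2 of 9 genes were higher and 2 lower, but some share values, and of 6 separate loci 1 was higher and 2 lower. There c1qc, a complement gene of macrophages, was at 3.19, 1.22, 1.24 and 0.536 FPKM, highest in the control. Outside the lists and seen among the values, the progranulin genes grna.1 and grna.2 were at 6.32 and 3.41 FPKM in the DBP library and below 0.8 in the other 3. Red blood cell genes summed to 5.83 FPKM in the control and 6.49 in the DBP library, and 12 of 19 of their loci were higher and 6 lower. Liver genes were higher at 16 of 33 loci and lower at 12. In the control 13 of the loci were at 0, among them FGG, PLG and TTR, which were above 0 in the DBP library. In the DBP library 8 were at 0, among them fabp10a, a defining liver gene. The liver loci summed to 8.35 FPKM in the control and 4.36 in the DBP library, but to 3.52 and 3.69 without ITIH2, a plasma protein gene.

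**Figure D4:**
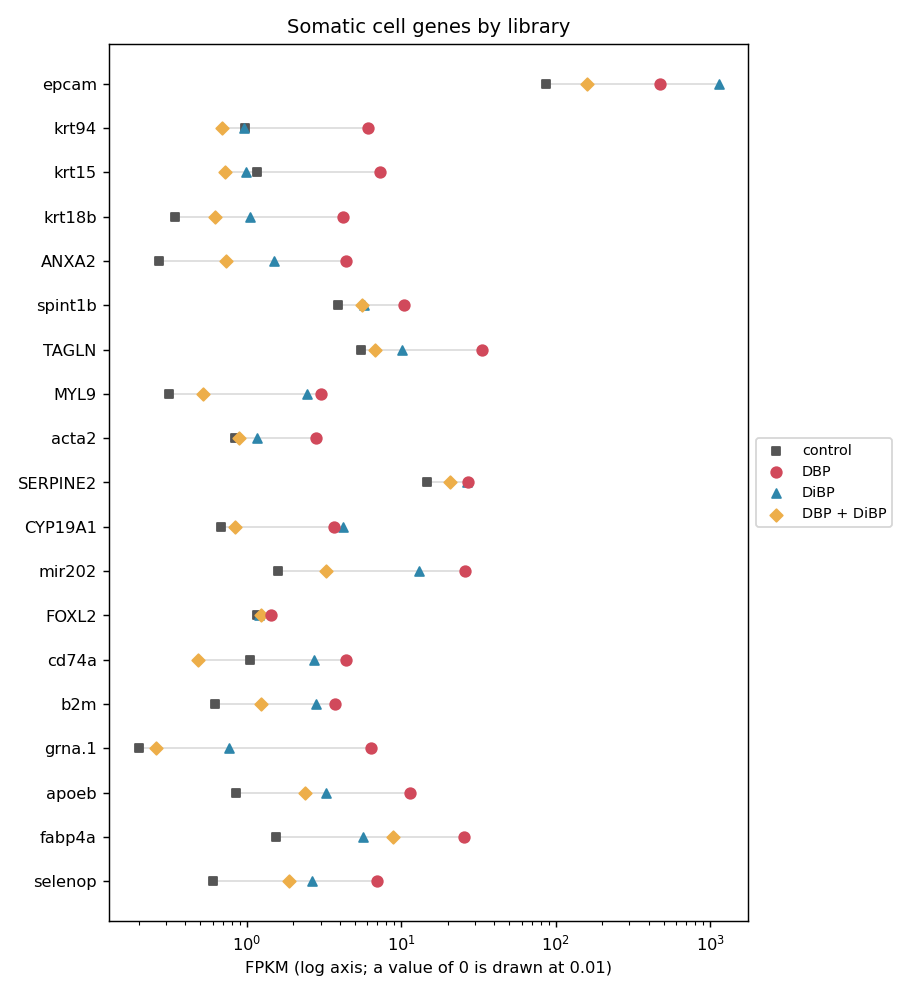
FPKM on a log axis for genes of epithelium, smooth muscle, granulosa cells, leukocytes and lipid transport, with 1 symbol per library. The DBP library (red circles) is the highest at krt94, krt15, TAGLN, grna.1, apoeb and fabp4a, and the DiBP library at epcam and CYP19A1. The 4 libraries lie close at the tested FOXL2 row.

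Lipid carriers differed strongly in both directions. Among 18 tested, 5 were at least 1.5-fold higher and 3 lower, with a median of -0.05. A carrier of fatty acids, fabp4a, stood at 1.55 FPKM in the control, 25.3 in the DBP, 5.65 in the DiBP and 8.79 in the combined library. The apolipoprotein gene apoeb was at 0.851, 11.3, 3.25 and 2.36 FPKM in the same order. An APOD row, of the lipocalin apolipoprotein D, went the other way, at 175, 64.4, 176 and 195 FPKM, and the carrier apom was at 3.14, 0.865, 4.36 and 0.262 FPKM. The DBP library stood alone at APOD, while at apom the combined library was lower still. Enzymes of fatty acid synthesis and storage had 6 of 22 genes at least 1.5-fold lower and 0 higher, with a median of -0.28. The median was -0.04 over those at 5 FPKM or more. MOGAT2, which makes diacylglycerol, was at 7.27 FPKM in the control, 2.65 in the DBP, 10.6 in the DiBP and 6.46 in the combined library. FASN, fatty acid synthase, was at 4.56 FPKM against 7.41 and SREBF1, its regulator, at 1.97 against 4.42.

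In cholesterol synthesis 1 of 20 genes was at least 1.5-fold higher and 5 lower, with a median of -0.07. SC5D, a late enzyme, was at 6.92 FPKM in the control, 2.64 in the DBP, 8.0 in the DiBP and 6.24 in the combined library, so the DBP library alone was low. The regulator srebf2 was at 14.1 FPKM against 26.1. Fatty acid oxidation and PPAR targets, the genes by which phthalate monoesters are known to act in rodent liver, had 2 of 45 higher and 3 lower, with a median of -0.07. In this list only ANGPTL4 was at least 2-fold higher. It was at 1.44 FPKM in the control, 4.19 in the DBP, 5.90 in the DiBP and 2.16 in the combined library. The receptor gene pparg was at 2.99 FPKM in each of the control and DBP libraries, and ACADS, a dehydrogenase of short fatty acids, was at 37.3 against 20.6.

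Of 45 tested genes of xenobiotic metabolism 8 were at least 1.5-fold higher and 8 lower, with a median of -0.16. Some share values, and of the 35 separate loci 7 were higher and 5 lower, with a median of -0.11. Those above the control included glutathione transferases. MGST2, a microsomal one, was at 5.49 FPKM in the control, 20.1 in the DBP, 5.66 in the DiBP and 11.2 in the combined library. The transferase gstt1b was at 4.1, 11.7, 5.05 and 6.42 FPKM, and gsta.1, which shares its values with gsta.2, at 4.79, 10.9, 4.05 and 3.76 FPKM. At all of these the DBP library was the highest. The carboxylesterase ces2b, of a family that cuts ester bonds, was at 3.65 FPKM in the control, 1.09 in the DBP, 0.887 in the DiBP and 1.39 in the combined library. In antioxidant defence, with 5 of 40 higher and 3 lower, the selenium carrier selenop was at 0.604, 6.99, 2.64 and 1.88 FPKM, and gpx4a, which reduces lipid peroxides, at 30.9, 12.8, 23.8 and 19.8 FPKM.

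Genes of retinoid metabolism, which makes and removes the signal retinoic acid, were at least 1.5-fold higher at 7 of 24 and at least 1.5-fold lower at 1, with a median of 0.07. A BCO2 row, of a carotenoid-cutting oxygenase, was at 0.686 FPKM in the control, 6.04 in the DBP, 6.30 in the DiBP and 4.83 in the combined library. The DBP, DiBP and combined libraries were all above the control there. CYP26A1, which breaks down retinoic acid, was at 6.35, 20.3, 11.7 and 13.9 FPKM. RDH10, which makes its precursor, was lower in the DBP library, at 3.01 FPKM against 5.67.

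Signalling lists had medians near 0. In the TGF-beta family 4 of 35 genes reached 1.5-fold higher and 3 lower. An ACVR1B row, an activin receptor, was at 11.3 FPKM against 3.02 and a SMAD4 row, the shared signal carrier, at 10.8 against 23.0. In the Wnt pathway 4 of 28 were higher and 4 lower, and of the 27 separate loci 3 were higher and 4 lower. The beta-catenin gene ctnnb2 was at 222 FPKM in the control, 129 in the DBP, 77.9 in the DiBP and 170 in the combined library. In the insulin pathway 2 of 41 were higher and 5 lower, with TSC2, a brake on growth signalling, at 11.3 FPKM against 23.0. The Notch list held the transcription factor gene her2, at 0.358 FPKM in the control, 38.4 in the DBP, 72.5 in the DiBP and 5.49 in the combined library.

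Stress chaperones differed most in the inducible genes. Of 29 heat-shock chaperone genes, 4 were at least 2-fold lower in the DBP library and 0 higher, with a median of -0.13. The gene hsp70l was at 5.00 FPKM in the control, 0.295 in the DBP, 30.6 in the DiBP and 41.4 in the combined library. Its relative hsp70.3 was at 12.9, 1.82, 28.2 and 23.8 FPKM, and hsp70.1, which shares its values with HSPA2, at 7.67, 2.07, 21.5 and 21.5 FPKM. The DBP library was the lowest and the control second lowest at all of them. Their activator hsf1 had another order, at 7.57, 2.17, 2.51 and 4.04 FPKM. Immediate-early genes, which respond within minutes to handling or stress, had 6 of 34 at least 1.5-fold higher and 5 lower. JUN was at 4.20, 1.13, 14.9 and 9.85 FPKM and SOCS3, a brake on cytokine signals, at 1.47, 0, 4.42 and 1.95 FPKM, the DBP library being the lowest at both. In the other direction, ier2b was at 0.722, 2.82, 6.08 and 3.00 FPKM and IER5L at 0.259, 2.33, 1.13 and 1.88 FPKM, the control being the lowest at both. The labels do not state the time of day of sampling. Of 21 clock genes 3 were higher and 5 lower, with NR1D2 at 0.978 FPKM against 3.59 and CRY2, a repressor of the clock, at 10.3 against 19.9.

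In the p53 and apoptosis list 7 of 43 genes were at least 1.5-fold higher and 1 lower, with a median of 0.08. Some share values, and of the 38 separate loci 7 were higher and 1 lower, with a median of 0.15. A GADD45A row, of a gene induced by DNA damage, was at 6.10 FPKM in the control, 17.2 in the DBP, 3.38 in the DiBP and 2.49 in the combined library. The DBP library was alone above the control there. BOK, a death gene of ovarian tissue in rodents, was at 93.3 FPKM against 56.2. Of the same list, diablob was at 57.5 FPKM against 18.6 and pmaip1 at 75.3 against 26.4. The gene mdm2 was lower but short of 1.5-fold, at 8.01 against 12.3.

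Set against all 3 other libraries, the DBP library was at least 2-fold above each of them at 80 genes (0.635%) and at least 2-fold below each at 37 (0.294%). The same counts were 70 (0.555%) and 90 (0.714%) for the control, 96 (0.762%) and 111 (0.881%) for the DiBP and 41 (0.325%) and 54 (0.428%) for the combined library. This way of picking genes was chosen after the values were seen. A gene near 0 elsewhere can pass the filter through the library in which it is high, so these counts are description only. Rows that share values, such as gsta.1 and gsta.2, are counted separately in them. The DBP library had the fewest genes below all others. The sharpest was raver1 (ENSDARG00000052617), of an RNA-binding protein that partners the splicing regulator PTB, at 1.84 FPKM against 31.2 in the control, 34.4 in the DiBP and 31.2 in the combined library. AP2A1, a subunit of the clathrin adaptor that takes receptors into the cell, was at 7.64 FPKM against 29.8, 26.1 and 28.7. PPP3CC, a catalytic subunit of the phosphatase calcineurin, was at 2.84 against 10.3, 14.6 and 10.8 FPKM. At all of these the 3 other libraries lay close together and the DBP library well below. DICER1, which cuts microRNA precursors, was at 0.517 FPKM against 3.59, 2.95 and 3.81, and the corepressor gene ripply3 at 1.67 against 7.76, 8.49 and 5.54.

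Above all others, tmsb4x, of the actin-binding peptide thymosin beta 4, was at 94.0 FPKM in the DBP library against 34.3 in the control, 37.7 in the DiBP and 40.0 in the combined library. The RNA-binding gene elavl1a, whose protein steadies mRNA in mammals, was at 36.8 FPKM against 15.4, 14.8 and 13.1. A GCDH row, of a mitochondrial enzyme of lysine breakdown, was at 25.5 FPKM against 8.96, 3.04 and 6.38. Genes with a near-zero value in 3 libraries made up part of the list. Among them gig2f was at 7.04 FPKM and MIR142, a microRNA gene of blood cells, at 5.47, each listed at 0 in the other 3 libraries. Of the 80 genes above, 48 carried a symbol that is not a clone name, and of the 37 below, 23.

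**Figure D5:**
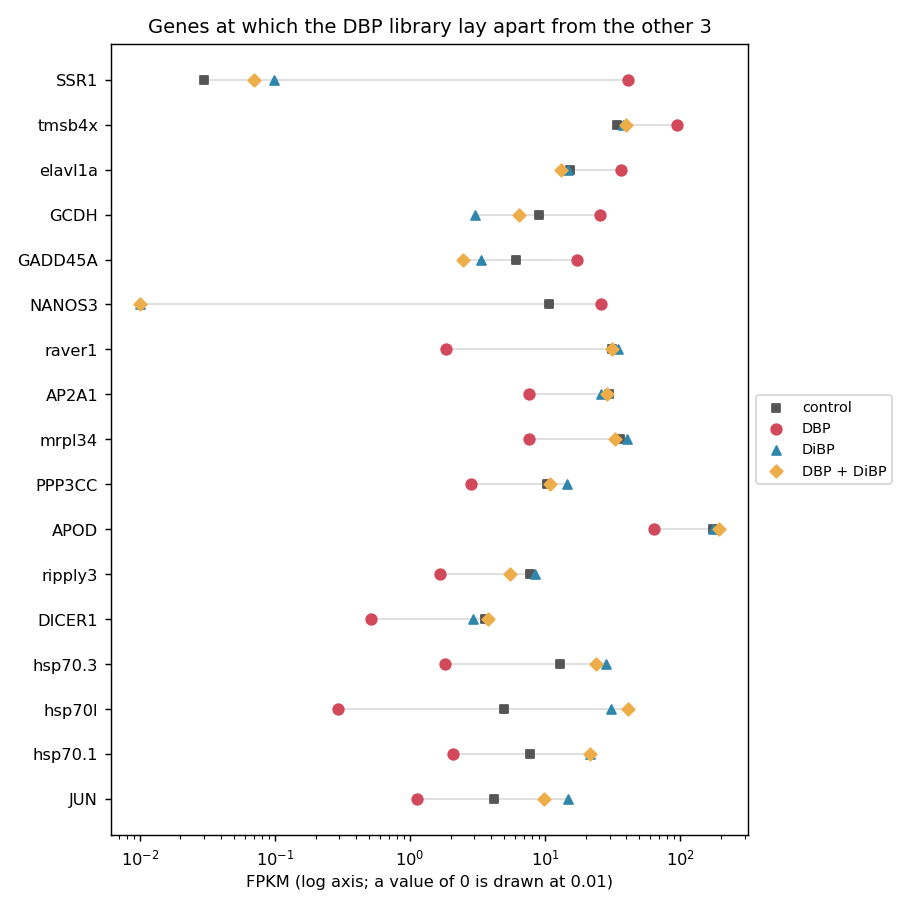
FPKM on a log axis for genes at which the DBP library (red circles) lay at least 2-fold above or below each of the other 3 libraries, with 1 symbol per library. At raver1, AP2A1, mrpl34 and APOD the other 3 libraries cluster, while at the hsp70 genes and JUN they spread widely above the DBP library.

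Among abundant genes, those that average 50 FPKM or more in the DBP and control libraries, the lowest differences were spread over several functions. FBXO42, an adaptor of a ubiquitin ligase, was at 249 FPKM in the control, 10.8 in the DBP, 66.7 in the DiBP and 2.70 in the combined library. The RNA granule gene caprin2 was at 278, 76.8, 142 and 114 FPKM, so the DBP library was the lowest of the 4. The endocytic adaptor gene dab2 was at 217, 106, 83.7 and 173 FPKM, and actr3, of the complex that branches actin, at 192, 95.2, 74.3 and 150 FPKM. At both, the single exposures were lowest. The telomerase gene TERT, less abundant, was at 22.3, 5.92, 4.41 and 9.0 FPKM, and SLC30A10, a manganese exporter, at 13.4, 2.36, 2.77 and 5.03 FPKM. On the high side, ppdpfb was at 142, 504, 324 and 233 FPKM and the lectin gene listed as lectin at 131, 362, 472 and 46.3 FPKM. The DBP and DiBP libraries were the highest at each of these, and the combined library was below the control at the lectin gene.

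A ribosomal RNA also differed. A row named 5_8S_rRNA, one of several with that name, was at 131 FPKM in the control, 16.9 in the DBP, 37.3 in the DiBP and 91.9 in the combined library. Its part in the differences above was not tested.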

How the data were processed

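FPKM values, 1 deposited table per library, were made by the authors before deposit. The unit was read from the values, since no header or label names it. Per the submitters' processing notes, the tools were HISAT2 and HTSeq 0.6.1 and the build GRCz10. The labels do not state strand use, so reads of overlapping genes may be mixed. Per the labels' protocols, RNA of snap-frozen ovaries was extracted with an RNeasy kit and made into NEBNext Ultra libraries.

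Differences were log2(FPKM + 1), DBP minus control, for Ensembl rows averaging 1 FPKM or more over 4 libraries, with no further scaling. Of these 12603 genes, 11644 had a symbol and 1424 share their values with another gene. Counting rows of merged loci too, 1503 share them with another row. Rows of merged loci were themselves left out. The genes, the 63 lists and the naming rule were chosen with earlier results of these data known. The rule took the 15 highest and 15 lowest differences among all genes, among genes at 1 FPKM or more in both libraries and among those averaging 50 FPKM or more over both. From each list it took the 4 tested members with the largest differences in either direction, so these are extremes of their list. Other genes were named after their values were seen. List members were also matched without the final paralog letter. FPKM gives no counting interval. The code was tested on simulated data. Python 3.11.15, numpy 2.4.6, pandas 2.3.3 and matplotlib 3.10.9 were used.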

Additional observations from a re-analysis of the deposited data

Results flagged for a closer look

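The 2177 rows of merged loci averaging 1 FPKM or more carry no gene name and entered no comparison above as separate rows. Some of the genes, SSR1 among them, share their values with a merged locus. Of them, 247 were at least 2-fold higher in the DBP library than in the control and 171 at least 2-fold lower. Among the 12603 genes the shares were 3.68% higher and 2.48% lower, so merged loci were called more often in both directions. The merged loci are given because the comparison leaves them out.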

How the results depend on the processing

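No left-out replicate or error could be used. No paired analysis was possible because each group has 1 library. The 464 higher and 312 lower genes became 772 and 549 with a pseudocount of 0.1, 164 and 97 with a pseudocount of 5, and 226 and 180 at a mean of 5 FPKM or more. With 1 FPKM or more asked for in both libraries, 264 genes were higher. Without a filter, under 3 scalings and with collapsed rows, both counts stayed within 1.5 times. Of the called genes 59.8% were higher, and 50.7% with library totals made equal. That scaling moved the median of all genes to -0.09. It gave 16 of the 63 list medians the opposite sign. Among lists with a median past 1.5-fold, the liver median became 0.00018 without a filter and 0.20 at 1 FPKM in both libraries, and the adipocyte median -0.0011 at 1 FPKM in both. These medians rest on 2 and 4 tested genes, and the cause was not tested. The smooth muscle median of 0.44 was -0.19 at 1 FPKM in both libraries and -0.17 with exact symbols. The granulosa, leukocyte and surface epithelium medians of 1.02, 0.86 and 0.64 stayed positive but also depended on the processing. Their lowest values under the alternatives tried were 0.18, 0.30 and 0.33, each short of 1.5-fold. At a mean of 5 FPKM or more the granulosa and leukocyte medians rose instead, the latter to 4.32. The median of the mitochondrial complex I list lay between 1.65 and 2.13 under the alternatives tried. At a mean of 5 FPKM or more the endothelial, liver and red blood cell lists held no gene, nor did the red blood cell list at 1 FPKM in both. Values under 1 FPKM carry an unknown counting error.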
